A study of Mus musculus with 20 samples.

Results

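T helper 1 (Th1) and T helper 2 (Th2) cells, grown from mouse CD4+ T cells without any compound, were compared across all protein-coding genes. The libraries were chosen by their labels, 2 of WT Th1 cultures and 2 of WT Th2 cultures, and are 4 of the 20 RNA-seq libraries of the study. The study asked what the histone methyltransferase DOT1L does in CD4+ T cells, by deleting its gene or inhibiting the enzyme.

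All cells were CD4+ T cells from spleen and peripheral lymph nodes. WT mice are given as Cre+, so the controls carry a Cre recombinase too, and KO mice as CD4Cre+ DOT1L FL/FL, in which Cre driven by Cd4 removes loxP-flanked Dot1l from T cells. Pre-enriched cells were stimulated for 4 days by antibodies to CD28 and CD3, coated on the plate at 1 µg/ml, and sorted as viable CD4+ cells. Th1 cultures had IL-2 and IL-12 at 10 ng/ml each and anti-IL-4 at 10 µg/ml. Th2 cultures had IL-2 and IL-4 at 10 ng/ml each and anti-IFN-γ at 10 µg/ml. The same contrast exists in 3 further sets of 4 libraries, which are WT cultures with 1 µM SGC0649 (a control compound), WT cultures with 1 µM SGC0946 (a DOT1L inhibitor), and KO cultures. WT naive cells that had not been cultured are given for orientation. Groups have n = 2, and the labels do not say whether replicates are separate mice, so p-values measure the spread between these libraries, which may be technical.

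As background, IL-12 acts through STAT4 and, with the T-box factor T-bet, installs the Th1 program, whose signature cytokine is IFN-γ and which directs macrophages and defence against intracellular microbes. IL-4 acts through STAT6 and raises GATA3, the Th2 regulator, which opens the linked Il4, Il13 and Il5 genes for defence against worms and for allergy. Each program restrains the other, and the antibodies in the cultures remove the opposing cytokine.

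The WT Th1 and WT Th2 libraries held 9704500 to 12274847 counts of protein-coding genes, and their TMM scaling factors lay between 0.98 and 0.997. Between replicates, the SD of the log2 difference was 0.124 in WT Th1 and 0.19 in WT Th2. Values below are TMM-scaled CPM, the share of a library's counts that a gene takes, given for replicate 1 and then replicate 2. Fold changes are log2 of WT Th1 over WT Th2 with standard errors, so a positive value is higher in WT Th1. Tests are edgeR's quasi-likelihood test with Benjamini-Hochberg adjustment over all genes tested, and a gene is called at an adjusted p under 0.05. Since these are bulk libraries, fewer cells of a type and less RNA per cell cannot be told apart.

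The label markers went with the labels. Ifng, which encodes IFN-γ, had 727 and 700.1 CPM in WT Th1 and 20.8 and 26.9 CPM in WT Th2, against 16.8 and 12.8 CPM in WT naive cells (log2 fold change 4.91 ± 0.30, adjusted p = 1.24e-08). Tbx21, which encodes T-bet, had 287 and 272 CPM in WT Th1 and 19.98 and 16.6 CPM in WT Th2 (3.93 ± 0.15, adjusted p = 7.52e-12). WT Th2 stayed near the WT naive level of both genes, with Tbx21 at 22.5 and 17.7 CPM in WT naive cells. Il4 had 4.58 and 4.14 CPM in WT Th1 and 72.5 and 75.0 CPM in WT Th2, against 2.45 and 1.62 CPM in WT naive cells (-4.08 ± 0.31, adjusted p = 4.83e-08). Gata3 had 35.3 and 39.5 CPM in WT Th1 and 343 and 299 CPM in WT Th2 (-3.10 ± 0.15, adjusted p = 5.86e-11), and its WT naive values of 61.5 and 75.2 CPM lay between the culture groups. For all 4 markers the WT Th1 and WT Th2 libraries stood far apart with no overlap, and 80.1% of all tested genes had no overlap either.

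**Figure D1:**
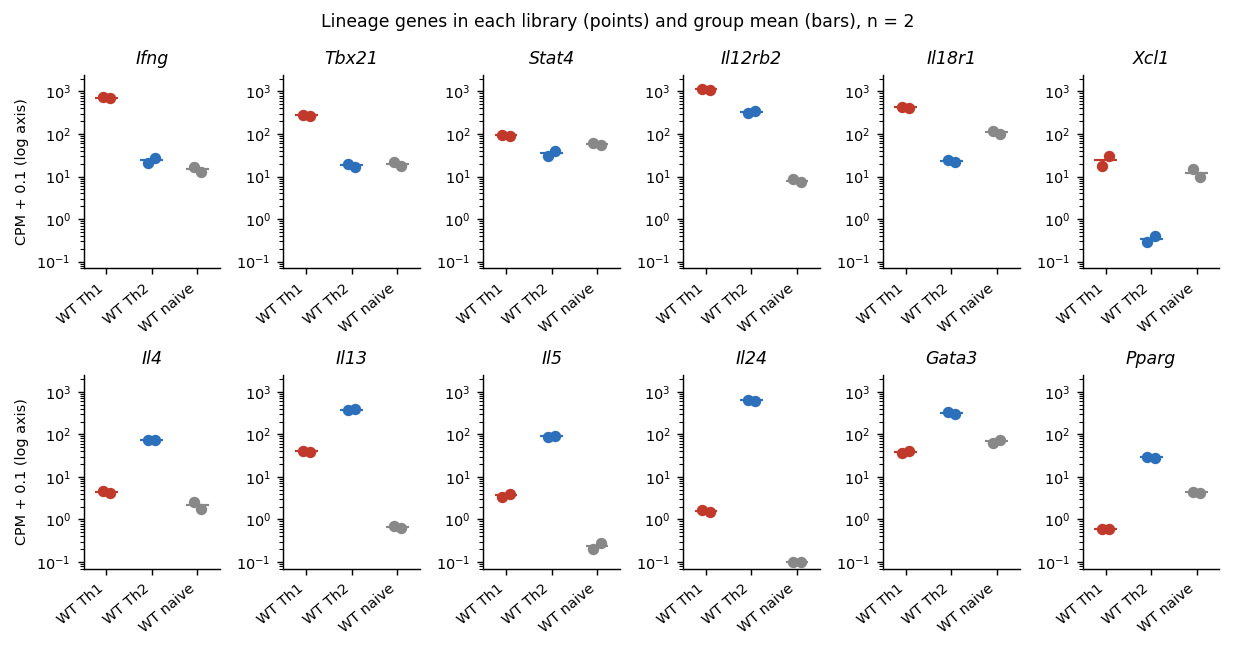
Each panel shows 1 gene, with CPM plus 0.1 on a log axis in the 2 libraries (points) and the group mean (bar) of WT Th1, WT Th2 and WT naive cells. The replicates of a group sit close together. WT Th1 and WT Th2 do not overlap in any of the 12 panels, and 80.1% of all tested genes had no overlap either.

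The promoters of the signature cytokine genes are shown because these cytokines define the lineages. Each sequence is the 250 bases before the RefSeq start site in GRCm38.p6, read 5′ to 3′ on the gene's own strand. Capitals mark matches on either strand to a GATA motif (the letters GATA with an adenine or thymine before them and an adenine or guanine after them) or a STAT motif (TTC and GAA with 3 or 4 free bases between them). The windows are chr10:118440796-118441045 on the plus strand for Ifng, chr11:53618666-53618915 on the minus strand for Il4, chr11:53634703-53634952 on the minus strand for Il13, and chr11:53720544-53720793 on the plus strand for Il5.
Ifng: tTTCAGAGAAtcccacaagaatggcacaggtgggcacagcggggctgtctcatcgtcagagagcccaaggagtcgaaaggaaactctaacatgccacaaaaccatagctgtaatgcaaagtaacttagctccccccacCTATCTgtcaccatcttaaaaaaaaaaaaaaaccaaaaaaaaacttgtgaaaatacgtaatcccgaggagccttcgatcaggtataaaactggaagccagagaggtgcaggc
Il4: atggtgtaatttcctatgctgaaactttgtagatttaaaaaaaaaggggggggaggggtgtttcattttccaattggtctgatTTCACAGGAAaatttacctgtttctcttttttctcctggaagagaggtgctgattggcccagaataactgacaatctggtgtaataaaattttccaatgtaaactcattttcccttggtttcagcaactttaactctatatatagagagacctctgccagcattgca
Il13: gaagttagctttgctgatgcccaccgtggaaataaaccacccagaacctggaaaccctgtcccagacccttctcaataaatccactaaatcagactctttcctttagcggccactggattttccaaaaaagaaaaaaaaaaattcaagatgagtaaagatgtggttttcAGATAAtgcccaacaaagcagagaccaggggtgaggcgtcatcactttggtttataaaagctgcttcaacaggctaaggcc
Il5: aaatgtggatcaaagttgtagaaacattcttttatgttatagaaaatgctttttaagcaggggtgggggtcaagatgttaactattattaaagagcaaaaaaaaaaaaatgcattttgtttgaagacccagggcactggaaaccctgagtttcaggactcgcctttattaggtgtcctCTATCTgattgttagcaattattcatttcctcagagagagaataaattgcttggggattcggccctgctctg
Ifng held a STAT match that starts at -249 and a GATA match at -112. Il4 held a STAT match with the 4-base gap at -167 and no GATA match, and 4 matches to the NFAT core GGAAAA. Il13 and Il5 each held a GATA match, at -81 and -72. GATA matches lay in 23.5% of 16007 mouse promoters of this length, so a match in one window sets no gene apart. Among promoters of genes called at 4-fold or more, GATA matches lay in 21.2% of 259 higher in WT Th1 and in 20.9% of 584 lower in WT Th1, against 17.3% of the 10009 promoters of tested genes. The T-box core GGTGTGA lay in 5.02% of those higher and 2.91% of those lower, against 2.88% of tested genes. STAT matches with the 3-base gap lay in 8.11% and 4.28% of the same promoters, against 6.06% of tested genes. With the 4-base gap the shares were 5.41% of those higher and 5.14% of those lower, against 4.37% of tested genes, and for the NFAT core 21.6% and 18%, against 18.4%. These shares are descriptions with no test.

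Over the whole table, 6973 of 13072 tested genes were called, which is 53.3%. Of these, 3402 (26.0%) were higher and 3571 (27.3%) lower in WT Th1. At an unadjusted p under 0.05 there were 7659 genes (58.6%). The sides parted with the size of the change. At 2-fold or more, 2673 genes (20.4%) were called, 1073 (8.21%) higher and 1600 (12.2%) lower. At 4-fold or more there were 1139 (8.71%), 366 higher (2.80%) and 773 lower (5.91%), and at 16-fold or more 57 higher and 267 lower, so the large changes were mostly genes at a higher level in WT Th2. Of the called genes, 17 had no count in either WT Th2 library and 94 had no count in either WT Th1 library. They passed the filter only through other libraries and are part of the counts above, so they are no separate evidence. The CPM values of WT Th1 and WT Th2 did not overlap for 10467 tested genes (80.1%), and the median log2 fold change over all tested genes was 0. Counts for gene lists below should be read against these shares.

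**Figure D2:**
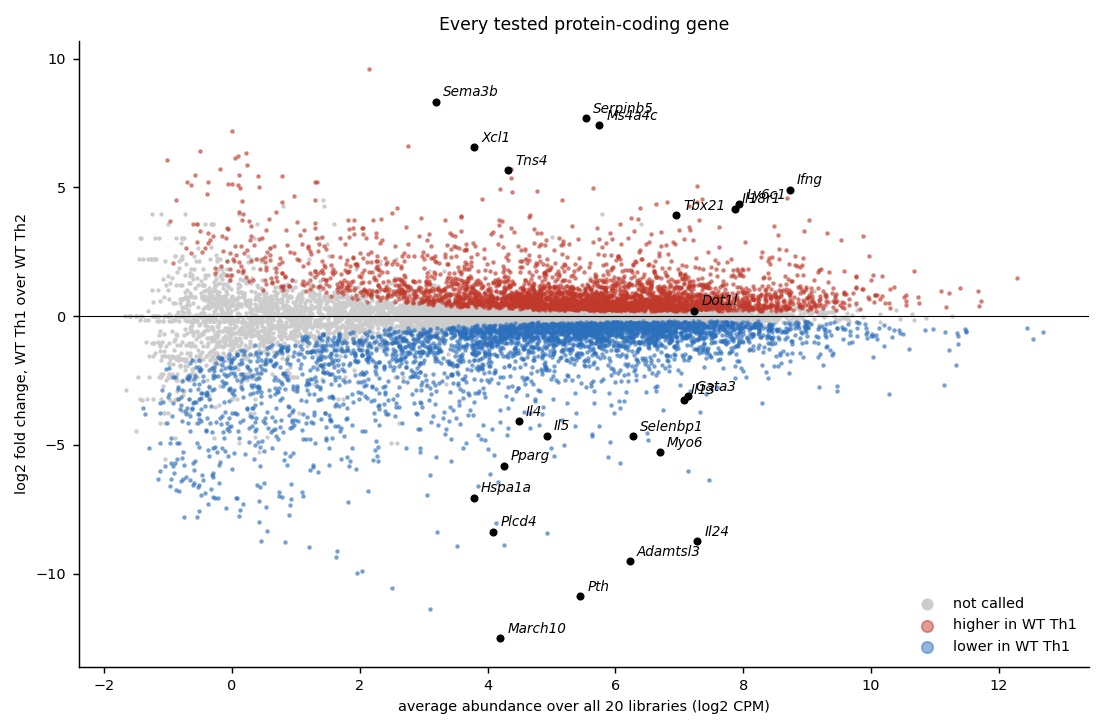
Each point is 1 of the 13072 tested genes, with the average abundance over all 20 libraries (log2 CPM) on the horizontal axis and the log2 fold change of WT Th1 over WT Th2 on the vertical axis, coloured by call. The cloud reaches further below 0 than above it, with 267 genes lower and 57 higher in WT Th1 by 16-fold or more. Fitted values of genes with no count in one group, such as March10, depend on the prior count.

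Among the Th1 cytokines and effector ligands, 9 of 15 genes were higher and 5 lower in WT Th1, with a median log2 fold change of 0.99. Xcl1 had the largest fold change of this list, ahead of Ifng, Ccl4 and Ccl3. Xcl1, which attracts cross-presenting dendritic cells, had 17.2 and 30.8 CPM in WT Th1 and 0.182 and 0.31 CPM in WT Th2 (6.56 ± 0.56, adjusted p = 1.28e-07). Ccl4 and Ccl3, inflammatory chemokines, had 252 and 230.1 CPM and 97.6 and 115 CPM in WT Th1, against 10.1 and 10.2 CPM and 5.11 and 4.65 CPM in WT Th2. Ccl5, which attracts T cells and monocytes, was 6.68-fold higher, at 128 and 117 CPM in WT Th1 and 17.7 and 19 CPM in WT Th2. None of these chemokine values overlapped between the groups, and Xcl1 was the only one that differed visibly between the WT Th1 replicates.

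The ligands of the TNF family split. Tnf itself was 2.92-fold higher in WT Th1 (71.5 and 64.6 CPM in WT Th1 and 23.5 and 23.1 CPM in WT Th2) and the death ligand Fasl 3.19-fold higher (35.3 and 30.4 CPM in WT Th1 and 10.7 and 9.92 CPM in WT Th2). Lta, the neighbour of Tnf that encodes lymphotoxin alpha, was 1.87-fold lower (39.4 and 37.3 CPM in WT Th1 and 63.3 and 79.8 CPM in WT Th2). Tnfsf14, which encodes LIGHT, was 3.28-fold lower (17.2 and 19.4 CPM in WT Th1 and 65.3 and 54.9 CPM in WT Th2), and Tnfsf11, which encodes RANKL, was 3.54-fold lower (3.23 and 3.64 CPM in WT Th1 and 13.9 and 10.4 CPM in WT Th2). So the list named for Th1 split by member, and only its chemokines, Ifng, Tnf, Fasl, Csf2 and Ltb were on the WT Th1 side. Csf2, which encodes GM-CSF, had 9.34 and 10.1 CPM in WT Th1 and 4.84 and 4.96 CPM in WT Th2, and without any 1 of the 4 libraries its adjusted p lay between 0.0544 and 0.0935. Il21, a cytokine of follicular help, was not called, at 181 and 169 CPM in WT Th1 and 197 and 138 CPM in WT Th2.

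Of 15 Th1 transcription factors, 13 were higher and 1 lower, with a median of 1.2, and 8 of the 13 were higher by 2-fold or more. Bhlhe40, Zeb2, Id2 and Prdm1 had smaller log2 fold changes of 0.27, 0.55, 0.37 and 0.33, and each lost its call without at least 2 of the 4 libraries, WT Th1 replicate 1 among them. Hlx, a homeobox partner of T-bet, had 50.3 and 44.3 CPM in WT Th1 and 7.30 and 7.03 CPM in WT Th2 (2.72 ± 0.23, adjusted p = 9.02e-08). Irf1, an interferon-induced factor, had 593 and 520.3 CPM in WT Th1 and 99.9 and 96.5 CPM in WT Th2, and its WT naive values of 471 and 476 CPM were close to WT Th1, so WT Th2 was the group that stood apart. Irf8, another factor of the same family, was 3.58-fold higher (405 and 392.5 CPM in WT Th1 and 103 and 119.7 CPM in WT Th2). Stat4 was 2.63-fold higher, at 96.6 and 89.7 CPM in WT Th1 and 30.6 and 40.2 CPM in WT Th2. Eomes, the T-box relative of Tbx21, was 2.28-fold higher at low levels (18.8 and 25.7 CPM in WT Th1 and 8.12 and 11.4 CPM in WT Th2). Twist1, a repressor of inflammatory genes in repeatedly stimulated Th1 cells, had 42 counts in the WT Th1 libraries and 2 in WT Th2, a scaled ratio of 18.2 with a counting interval of 4.72 to 154.9. Runx3, which works with T-bet at Ifng and Il4, was not called (341 and 333 CPM in WT Th1 and 369.5 and 409.8 CPM in WT Th2), and Runx1 was the 1 member called lower, by 1.39-fold (74.5 and 72.9 CPM in WT Th1 and 107 and 98.7 CPM in WT Th2).

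Of 17 Th1 receptors and surface molecules, 15 were higher and 2 lower, with a median of 2.27. Among its cytokine receptors, the IL-18 receptor chains had the largest fold changes. Il18r1 had 434 and 410.3 CPM in WT Th1 and 25 and 21.6 CPM in WT Th2 (4.18 ± 0.19, adjusted p = 1.06e-10) and its partner chain Il18rap 230.2 and 228 CPM in WT Th1 and 11.6 and 12 CPM in WT Th2 (4.28 ± 0.22). For both chains WT Th1 lay above WT naive cells (120.4 and 102 CPM for Il18r1) and WT Th2 below them. Il12rb2, the signalling chain of the IL-12 receptor, had 1162 and 1088 CPM in WT Th1 and 310.2 and 340.3 CPM in WT Th2 against 8.64 and 7.18 CPM in WT naive cells, so both cultures held far more than naive cells, and WT Th1 the most (1.79 ± 0.11). The shared chain Il12rb1 was on the other side and 1.52-fold lower in WT Th1 (215 and 198 CPM in WT Th1 and 339.7 and 289.7 CPM in WT Th2).

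The chains of the IFN-γ receptor were split as well. Ifngr1, the chain that binds the ligand, was 4.83-fold higher in WT Th1, at 782 and 740.4 CPM in WT Th1 and 149 and 166 CPM in WT Th2. Ifngr2, the signalling chain, was 5.71-fold lower, at 12.7 and 10.8 CPM in WT Th1 and 71.0 and 63.7 CPM in WT Th2, against 191 and 218 CPM in WT naive cells. Every culture library therefore held less Ifngr2 than naive cells, and WT Th1 the least. Cxcr3, a chemokine receptor for migration into inflamed tissue, had 14.1 and 16.3 CPM in WT Th1 and 3.74 and 3.31 CPM in WT Th2 (2.10 ± 0.29). The lectin receptor chains Klrd1 and Klrc1 were 18.2-fold higher and 11.9-fold higher. Ly6c1 and Ly6c2, surface proteins of antigen-experienced T cells, were 20.6-fold higher and 21.7-fold higher, with the split of reads between these near copies uncertain. Havcr2, which encodes TIM-3, was 3.40-fold higher (81.3 and 73.1 CPM in WT Th1 and 22.2 and 23.3 CPM in WT Th2).

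The Th2 cytokine list held 14 tested genes, of which 11 were lower and 2 higher in WT Th1, with a median of -2.90. Il5, the eosinophil growth factor, had 3.23 and 3.89 CPM in WT Th1 and 88.6 and 90.2 CPM in WT Th2 (-4.65 ± 0.25, adjusted p = 4.62e-10), and Il13, which acts on epithelium and macrophages, had 40.6 and 39.1 CPM in WT Th1 and 372 and 384 CPM in WT Th2 (-3.25 ± 0.27, adjusted p = 2.27e-07). Per length of transcript, Il13 reached 33.1 CPM per kb in WT Th1 and 314 CPM per kb in WT Th2, and Il4 3.55 CPM per kb in WT Th1 and 60.1 CPM per kb in WT Th2, so Il13 was the more abundant of this pair in WT Th2. The member with the widest gap was Il24, an IL-10 family cytokine, with 1.53 and 1.41 CPM in WT Th1 and 658 and 613 CPM in WT Th2 and no count in WT naive cells (-8.75 ± 0.22, adjusted p = 2.79e-13). At 1.06 CPM per kb in WT Th1 and 458 CPM per kb in WT Th2, it was second per length in WT Th2 to Ecm1 among the 14 tested genes of the list.

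Il10, an anti-inflammatory cytokine that both lineages can make, was 3.30-fold lower in WT Th1 (98.7 and 79.7 CPM in WT Th1 and 314 and 274 CPM in WT Th2). Ecm1, an extracellular matrix protein that Th2 cells use to leave lymph nodes, had 406 and 369 CPM in WT Th1 and 2899 and 1992 CPM in WT Th2 (-2.66 ± 0.32). Il9, a mast cell growth factor, had no count in WT Th1 and 44 counts over the WT Th2 libraries, which is at least 17-fold lower in WT Th1 when 3 counts are set as the floor over the group. Csf1, the macrophage growth factor, was 1 of the 2 members on the WT Th1 side, at 368 and 304 CPM in WT Th1 and 108 and 79.0 CPM in WT Th2 (1.84 ± 0.31). WT Th1 and WT Th2 did not overlap for any of these genes.

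The genes around Il4 were read as a region, since Il4, Il13 and Il5 share control elements within the neighbouring gene Rad50. Within 250 kb of Il4 on chromosome 11, 12 of 19 protein-coding genes were tested, of which 9 were lower and 2 higher in WT Th1. The 9 include Il4, Il13 and Il5 themselves. They also include Slc22a5, at a log2 fold change of -0.47, and Sowaha, with means of 0 CPM in WT Th1 and 0.78 CPM in WT Th2. Rad50, a DNA repair gene, was 2.84-fold lower (59.1 and 65.3 CPM in WT Th1 and 162 and 192 CPM in WT Th2). Kif3a and Sept8, a motor subunit and a septin beside Il4, were 3.97-fold lower and 3.86-fold lower (17.6 and 16.6 CPM in WT Th1 and 67.3 and 68.2 CPM in WT Th2 for Kif3a). Irf1 lies in the same window and was 5.67-fold higher, so opposite changes lay within this one region. Uqcrq, a respiratory chain subunit, was not called (53.2 and 53.9 CPM in WT Th1 and 65.5 and 68.0 CPM in WT Th2, adjusted p = 0.0557), but was called in the paired fit with the replicate block, at an adjusted p of 0.0167.

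Around Il1rl1 on chromosome 1, 5 of the 6 tested genes were higher and none lower in WT Th1. They include Il18r1 and Il18rap as well as Il1rl2 (6.05-fold higher) and Slc9a2 (4.47-fold higher). Il1rl1 encodes the IL-33 receptor, usually counted as Th2, yet here it had 51.6 and 60.4 CPM in WT Th1 and 34.9 and 34.2 CPM in WT Th2 (0.70 ± 0.22, adjusted p = 0.0154). Its adjusted p was 0.091 without WT Th1 replicate 2, 0.0568 without WT Th2 replicate 1 and 0.0654 without WT Th2 replicate 2. Around Tbx21, 2 of 15 tested genes were higher and 5 lower. The other higher gene was Tbkbp1, a partner of the kinase TBK1, at 223 and 212 CPM in WT Th1 and 59.1 and 52.4 CPM in WT Th2 (1.96 ± 0.14), while Npepps and Mrpl45 were 2.06-fold lower and 2.14-fold lower. Around Gata3, none of 6 tested genes was higher and 4 were lower, Gata3 itself among them. Of the others, 4930412O13Rik and 9230102O04Rik lie within the body of Gata3. They had 3 and 2 counts over WT Th1, against 34 and 23 over WT Th2. Atp5c1 had a small log2 fold change of -0.31. Beside Ifng, the only other tested gene was Il22, a cytokine of barrier defence, 3.98-fold lower at 1.95 and 2.56 CPM in WT Th1 and 6.39 and 11.6 CPM in WT Th2. Iltifb lies in the same window and did not pass the filter. Reads that fit both Il22 and Iltifb would have been left out, and their share was not tested.

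**Figure D3:**
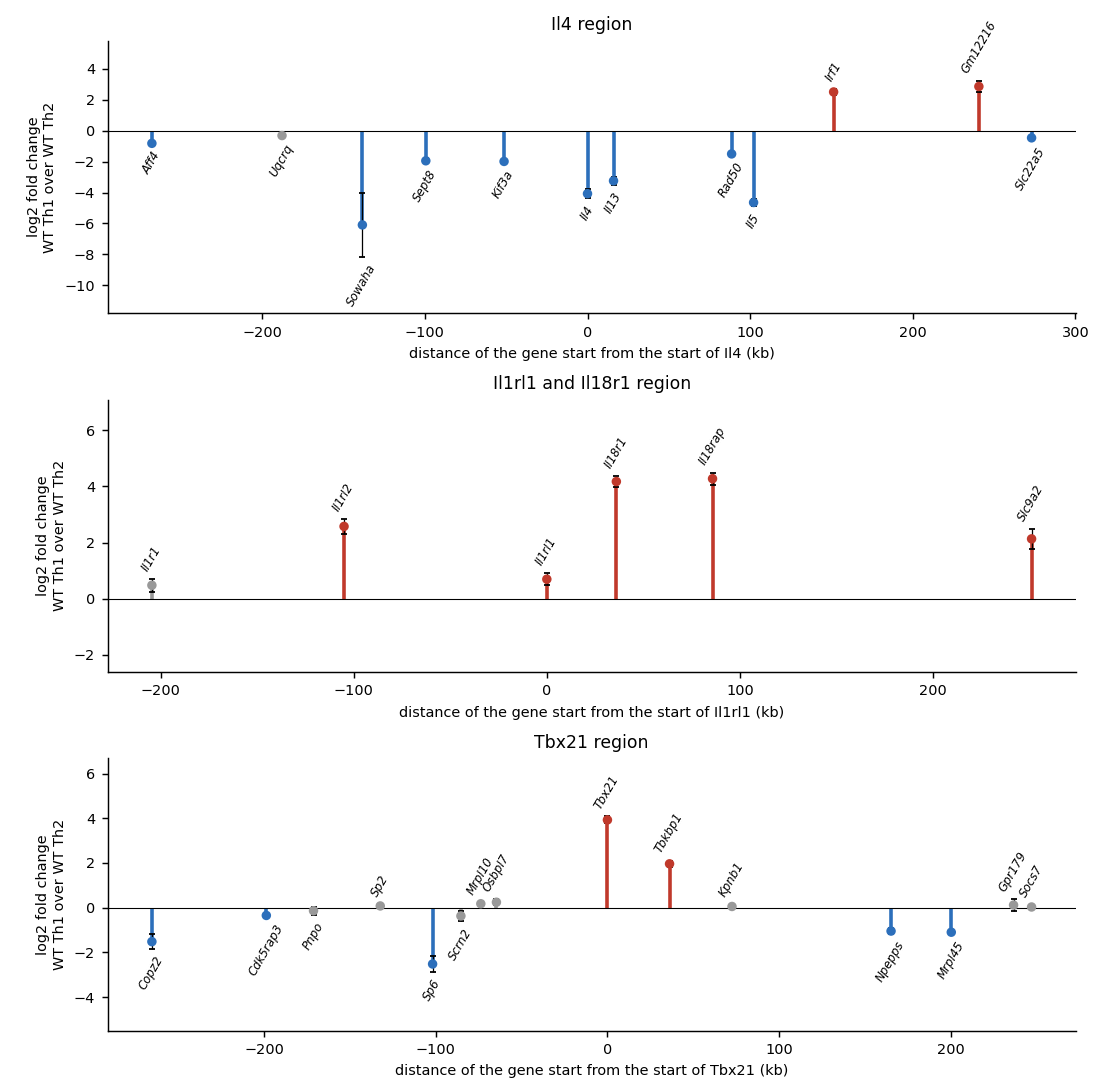
Each stem is a tested protein-coding gene within 250 kb of Il4 (top), Il1rl1 (middle) or Tbx21 (bottom), placed by the distance of its start from that gene's start in kb, with the log2 fold change of WT Th1 over WT Th2 and its standard error. Il4, Il13, Il5, Rad50, Kif3a and Sept8 point down while Irf1 in the same window points up, and in the middle panel 5 of 6 genes are called higher.

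Among 19 tested Th2 transcription factors, 12 were lower and 4 higher in WT Th1, with a median of -0.57. Pparg, a nuclear receptor that Th2 cells need for tissue responses, had 0.509 and 0.496 CPM in WT Th1 and 29.7 and 27.8 CPM in WT Th2 (-5.80 ± 0.54, adjusted p = 6.15e-07). Epas1, which encodes HIF-2α, had 12.7 and 10.8 CPM in WT Th1 and 177 and 136 CPM in WT Th2 (-3.73 ± 0.24, adjusted p = 9.07e-09). Batf, an AP-1 family partner of IRF4, was 4.09-fold lower (101 and 100.2 CPM in WT Th1 and 449.5 and 374 CPM in WT Th2), and Nfil3 3.88-fold lower (174 and 156 CPM in WT Th1 and 654 and 627 CPM in WT Th2). Rbpj, the DNA-binding partner of Notch, was 3.83-fold lower (131 and 130.5 CPM in WT Th1 and 517 and 484 CPM in WT Th2). Maf, an activator of Il4, was 2.67-fold lower (91.1 and 81.1 CPM in WT Th1 and 267 and 193 CPM in WT Th2), and Gfi1, a transcriptional repressor that helps Th2 cells expand, 1.82-fold lower. In each of these the WT Th2 libraries were above both WT Th1 libraries.

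Stat6, the factor that carries the IL-4 signal, was not called (346 and 365 CPM in WT Th1 and 376 and 378 CPM in WT Th2, -0.08 ± 0.07), nor was Stat5a (468 and 454 CPM in WT Th1 and 491 and 426 CPM in WT Th2). The 4 members on the WT Th1 side were Tcf7, Ikzf1, Zfpm1 and Notch1. Tcf7, which encodes TCF-1 and also marks naive and memory cells, had 679 and 623 CPM in WT Th1 and 182 and 182 CPM in WT Th2, against 1874 and 1971 CPM in WT naive cells (1.84 ± 0.32). Zfpm1, which encodes the GATA cofactor FOG-1, was 1.94-fold higher (56.3 and 63.6 CPM in WT Th1 and 29.4 and 32.5 CPM in WT Th2).

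Of 17 Th2 receptors and surface molecules, 9 were lower and 5 higher, with a median of -0.58. The chemokine receptors of Th2 cells were the clearest. Ccr8 had 6.96 and 6.04 CPM in WT Th1 and 169 and 138 CPM in WT Th2 (-4.56 ± 0.19, adjusted p = 2.45e-11) and Ccr4 26.0 and 20.8 CPM in WT Th1 and 309.9 and 278 CPM in WT Th2 (-3.65 ± 0.14). Il4ra, the chain that binds IL-4, was 2.21-fold lower (827 and 778 CPM in WT Th1 and 1819 and 1727 CPM in WT Th2, -1.14 ± 0.12), with WT naive values of 965 and 1037 CPM between the cultures. Il17rb, the IL-25 receptor chain, and Hpgds, a prostaglandin D2 synthase, were 14.2-fold lower and 14.4-fold lower at low levels, with 3.92 and 3.21 CPM and 8.58 and 5.89 CPM in WT Th2. Cysltr1, a leukotriene receptor, was 5.75-fold lower (17.8 and 17.3 CPM in WT Th1 and 102 and 99.96 CPM in WT Th2). Icos, a costimulator that helps Th2 responses, was on the WT Th1 side (1.99-fold higher, 743 and 698 CPM in WT Th1 and 349.9 and 374 CPM in WT Th2). Ptgdr2, the prostaglandin receptor CRTH2, had 7 counts over WT Th1 and none over WT Th2, at least 2.02-fold higher with a floor of 3 counts (adjusted p = 0.0254). That p was 0.0749 without WT Th1 replicate 2, 0.103 without WT Th2 replicate 1 and 0.086 without WT Th2 replicate 2.

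Signalling genes of the cytokine receptors changed in both directions. Of 21 STAT and SOCS genes, 7 were higher and 8 lower, against 26.0% and 27.3% of all tested genes, with a median of -0.05. Stat3 and Jak2 were 2.05-fold lower and 2.84-fold lower in WT Th1 (501 and 539.9 CPM in WT Th1 and 1539 and 1416 CPM in WT Th2 for Jak2). Jak1 was 1.81-fold higher. The feedback inhibitors Socs2 and Cish were 7.80-fold lower and 2.14-fold lower, and Socs2 had 18.3 and 17.7 CPM in WT Th1 and 156 and 126 CPM in WT Th2. Of the receptors that use the common gamma chain and their partners, 6 of 13 were higher and 4 lower. Il2ra, the high-affinity chain of the IL-2 receptor, was 1.5-fold lower (2126 and 2097 CPM in WT Th1 and 3161 and 3166 CPM in WT Th2), and Il7r 1.67-fold higher (594 and 538 CPM in WT Th1 and 363 and 317 CPM in WT Th2).

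**Figure D4:**
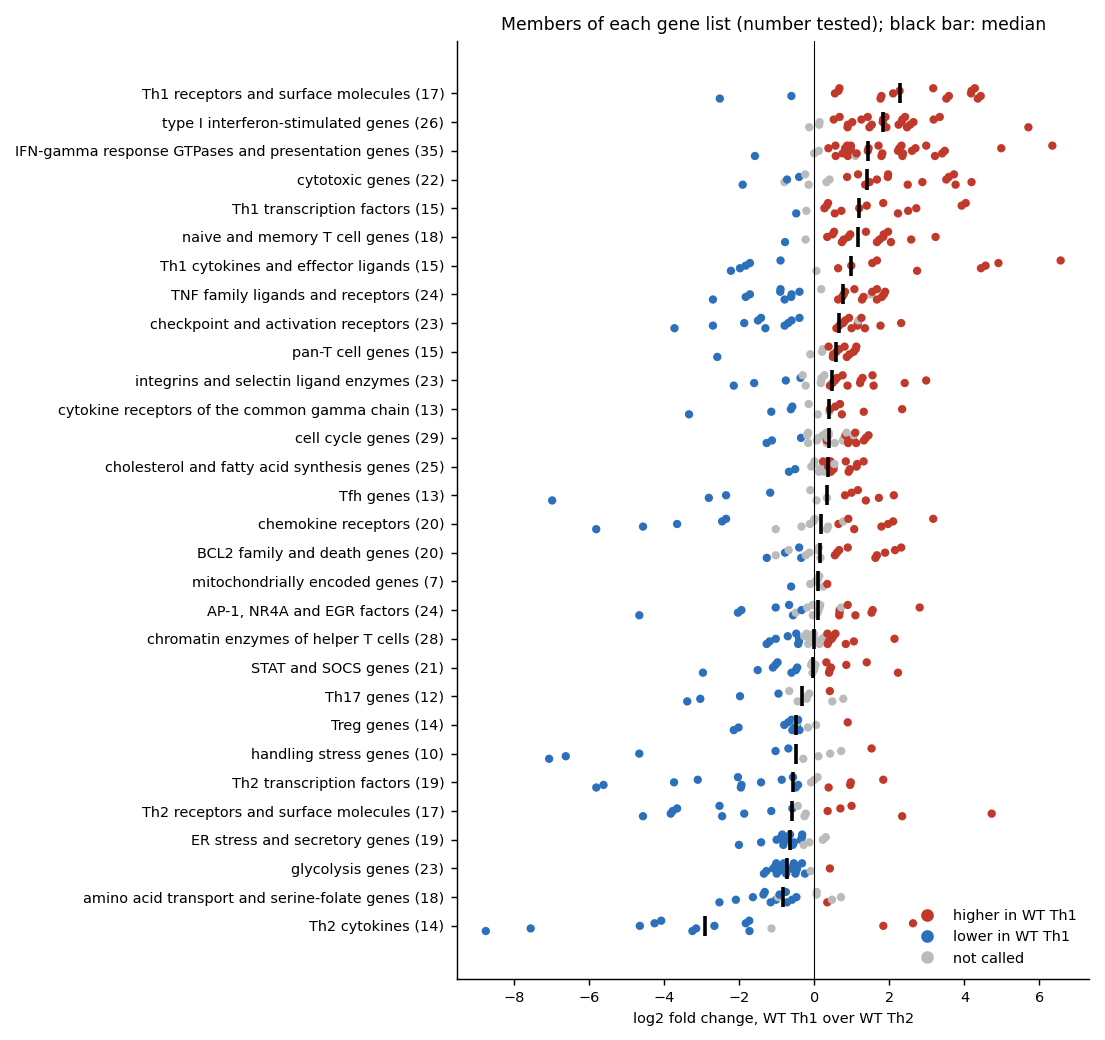
Each point is a tested gene of a list, placed by its log2 fold change of WT Th1 over WT Th2 and coloured by call, and the black bar is the list's median. Lists are ordered by median, from Th2 cytokines at -2.90 to Th1 receptors and surface molecules at 2.27, and most lists hold members on both sides of 0.

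Interferon-stimulated genes were mostly higher in WT Th1. Of 35 genes induced by IFN-γ, 31 were higher and 1 lower in WT Th1, with a median of 1.43, and of 26 type I interferon-stimulated genes 23 were higher and none lower, with a median of 1.83. Iigp1, a GTPase that attacks the vacuoles of intracellular parasites, had 111 and 111 CPM in WT Th1 and 2.65 and 4.45 CPM in WT Th2, against 29.0 and 26.3 CPM in WT naive cells (4.98 ± 0.27, adjusted p = 9.18e-10). Tgtp2 and Gbp10, GTPases of the same response with near copies in the genome, were 10.7-fold higher and 11.3-fold higher. Ifi204, a sensor of DNA, had 19.4 and 17.2 CPM in WT Th1 and 0.365 and 0.31 CPM in WT Th2 (5.71 ± 0.50). Ifi203 had 100.4 and 105 CPM in WT Th1 and 10.2 and 9.92 CPM in WT Th2, against 376 and 361 CPM in WT naive cells, so for this gene both cultures were below naive cells and WT Th2 the lowest. Cxcl9 had 22 counts in WT Th1 and none in WT Th2, at least 6.34-fold higher with the floor of 3 counts. The 1 member lower in WT Th1 was H2-Ab1, an MHC class II chain (80.2 and 89.7 CPM in WT Th1 and 253 and 255 CPM in WT Th2). Summed over the 26 type I genes, WT Th1 libraries had 1553 and 1497 CPM and WT Th2 libraries 469 and 495 CPM, against 1561 and 1662 CPM in WT naive cells.

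Gbp2, a guanylate-binding protein, was among the most abundant genes called at 4-fold or more, but its WT Th2 replicates differed, with 2515 and 2206 CPM in WT Th1 and 720.4 and 204 CPM in WT Th2 (2.35 ± 0.71, adjusted p = 0.0157). Its adjusted p was 0.0508 without WT Th1 replicate 1, and 0.0845 without WT Th2 replicate 2, where the log2 fold change was 1.71.

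Genes of naive and memory T cells were higher in WT Th1 for 16 of 18 members and lower for 1, with a median of 1.17. Ccr7, a chemokine receptor that guides T cells into lymph nodes, had 946 and 967 CPM in WT Th1 and 215 and 275 CPM in WT Th2, against 908 and 1056 CPM in WT naive cells. WT Th1 overlapped naive cells for this gene, and WT Th2 was below them. Bcl2 was the 1 member lower in WT Th1 (1.72-fold lower, 311 and 312 CPM in WT Th1 and 518 and 551 CPM in WT Th2). Integrin and selectin ligand genes included 13 of 23 higher and 4 lower. Itgal, the alpha chain of LFA-1, was 2.93-fold higher (1734 and 1653 CPM in WT Th1 and 612 and 543 CPM in WT Th2), and Gcnt1, an enzyme that makes selectin ligands, 5.30-fold higher. Itgb3 and Itgae were 3.03-fold lower and 4.42-fold lower (8.66 and 11 CPM in WT Th1 and 45.3 and 41.7 CPM in WT Th2 for Itgae, which encodes the integrin chain CD103).

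Cytotoxic genes were higher for 14 of 22 members and lower for 3, with a median of 1.41. Nkg7, a granule membrane protein, had 604 and 645 CPM in WT Th1 and 50.2 and 58.9 CPM in WT Th2 (3.52 ± 0.19, adjusted p = 5.27e-10), and Klrk1, which encodes NKG2D, 169 and 154 CPM in WT Th1 and 12.7 and 11 CPM in WT Th2 (3.77 ± 0.20). Gzma, a granzyme, was on the other side, at 151 and 122 CPM in WT Th1 and 530.0 and 491 CPM in WT Th2 (-1.91 ± 0.27). Some granzymes have near copies, and whether this affected the count of Gzma was not tested. Checkpoint and activation receptors split, 12 of 23 higher and 10 lower. Lag3 was 2.55-fold higher (634 and 614 CPM in WT Th1 and 249.9 and 239 CPM in WT Th2) and Pdcd1, which encodes PD-1, 2.24-fold higher (68.2 and 70.0 CPM in WT Th1 and 31.0 and 30.7 CPM in WT Th2). Tnfrsf8, which encodes CD30, was 6.49-fold lower (148 and 126 CPM in WT Th1 and 892 and 887 CPM in WT Th2) and Ctla4 1.62-fold lower (717 and 670.3 CPM in WT Th1 and 1154 and 1089 CPM in WT Th2). Cd83 was 13.2-fold lower (6.79 and 4.38 CPM in WT Th1 and 82.6 and 64.9 CPM in WT Th2). TNF family ligands and receptors were 13 of 24 higher and 9 lower, with Fas 3.70-fold higher and Tnfsf4, which encodes OX40L, 3.48-fold higher.

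Of the other helper lineages, the Treg list was mostly lower in WT Th1. Of 12 tested Th17 genes, 1 was higher and 4 lower. Ahr, the aryl hydrocarbon receptor, was 10.4-fold lower (9.68 and 13.4 CPM in WT Th1 and 126 and 116 CPM in WT Th2). Of 14 Treg genes, 1 was higher and 10 lower, with a median of -0.49. Ebi3, a cytokine subunit, was 4.05-fold lower (8.83 and 5.96 CPM in WT Th1 and 30.3 and 29.6 CPM in WT Th2), and Itgae, Ctla4 and Il2ra, given above, were lower too. The 1 higher member was Foxp3, the Treg regulator (1.85-fold higher, 24.9 and 24.5 CPM in WT Th1 and 11.5 and 15.2 CPM in WT Th2), and its level in both cultures was below that in WT naive cells, 99.0 and 108 CPM. Of 13 Tfh genes, 6 were higher and 4 lower. Tox was 4.32-fold higher, Bcl6, the Tfh regulator, 2.6-fold higher (57.6 and 55.3 CPM in WT Th1 and 26.1 and 17.3 CPM in WT Th2), and Cxcr4 5.09-fold lower (73.9 and 70.8 CPM in WT Th1 and 377 and 359.5 CPM in WT Th2). Tox2, a relative of Tox, was 7.04-fold lower, opposite to it. The largest fold change of the Tfh list was that of Ascl2, which had 1 count over WT Th1 and 138 over WT Th2. Its scaled ratio of WT Th2 over WT Th1 was 159.6, with a counting interval of 28.2 to 6348.

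Receptor-response factors were called in both directions, near the shares of all tested genes. Among AP-1, NR4A and EGR factors, 8 of 24 were higher and 7 lower, against 26.0% and 27.3% of all tested genes. Nr4a3, induced by antigen receptor signals, had 112 and 122 CPM in WT Th1 and 14.9 and 18.5 CPM in WT Th2 (2.81 ± 0.12), and Nr4a1 and Jun were 2.94-fold higher and 2.88-fold higher. Atf3, a stress-induced factor, had 4.67 and 6.04 CPM in WT Th1 and 118 and 154 CPM in WT Th2 (-4.66 ± 0.33), and Batf3 was 3.84-fold lower.

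Metabolic and secretory genes were mostly lower in WT Th1. Of 23 glycolysis genes, 21 were lower and 1 higher, with a median of -0.74. Slc2a3, which encodes the glucose transporter GLUT3, had 1250.0 and 1272 CPM in WT Th1 and 3272 and 2827 CPM in WT Th2 (-1.27 ± 0.15), Aldoa, an aldolase, 2192 and 2219 CPM in WT Th1 and 4829.6 and 4574 CPM in WT Th2 (-1.09 ± 0.13), and Pfkm, a phosphofructokinase, 61.3 and 60.7 CPM in WT Th1 and 154 and 154 CPM in WT Th2 (-1.34 ± 0.11). The exception was Hif1a (1.34-fold higher, 2141 and 2099 CPM in WT Th1 and 1594 and 1580.1 CPM in WT Th2). Summed over the 23 genes, WT Th1 libraries had 16905 and 17264 CPM and WT Th2 libraries 26956 and 26380.5 CPM, against 2903 and 2968 CPM in WT naive cells, so both cultures were well above naive cells.

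Of 19 ER stress and secretory genes, 15 were lower and none higher, with a median of -0.64. Ddit3, which encodes the stress factor CHOP, had 34.0 and 30.1 CPM in WT Th1 and 128 and 129 CPM in WT Th2 (-2.0 ± 0.13), Atf4, the regulator of the amino acid response, 233 and 233 CPM in WT Th1 and 619.7 and 624 CPM in WT Th2 (-1.42 ± 0.07), and Xbp1 284 and 274 CPM in WT Th1 and 529 and 498 CPM in WT Th2 (-0.88 ± 0.09). Ero1l, an oxidase that forms disulphide bonds in the ER, was among the most abundant genes called at 4-fold or more, at 336 and 318 CPM in WT Th1 and 2669.7 and 2714 CPM in WT Th2 (-3.04 ± 0.09, adjusted p = 2.79e-13). Of 18 amino acid transport and serine-folate genes, 12 were lower and 1 higher, with a median of -0.84. Asns, asparagine synthetase, was 5.76-fold lower (24.2 and 25.1 CPM in WT Th1 and 130.2 and 154 CPM in WT Th2), Psat1, an enzyme of serine synthesis, 3.10-fold lower, and Slc3a2, the heavy chain of the large amino acid transporter, 2.56-fold lower.

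Lipid synthesis and cell cycle genes were more often higher than lower in WT Th1. Of 25 cholesterol and fatty acid synthesis genes, 13 were higher and 2 lower, with a median of 0.37. Hmgcs1 was 2.21-fold higher and the cholesterol exporter Abca1 2.49-fold higher, while Lss and Fdft1 were 1.59-fold lower and 1.42-fold lower. Of 29 cell cycle genes, 10 were higher, 3 lower and 16 not called, against 26.0% higher and 27.3% lower over all tested genes. Pcna, the replication clamp, was 2.59-fold higher (169.6 and 182 CPM in WT Th1 and 64.0 and 71.7 CPM in WT Th2), and Cdkn1a, which encodes the inhibitor p21, 2.18-fold lower (223 and 228 CPM in WT Th1 and 476 and 509 CPM in WT Th2). Of 28 chromatin enzymes of helper T cells, 9 were higher and 8 lower, near the shares of all tested genes. Aff3 was 4.40-fold higher, and Tet2 and Kdm6b, which remove DNA and histone methylation, were 2.41-fold lower and 2.28-fold lower. Dot1l itself was not called (176 and 186 CPM in WT Th1 and 148 and 164 CPM in WT Th2, 0.21 ± 0.11). Of 20 BCL2 family and death genes, 9 were higher and 4 lower.

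Genes outside the Th1 and Th2 lists were also among the largest changes. By the largest log2 fold changes among the more abundant genes, whose mean log2 CPM was 3 or more, the WT Th1 side was led by Sema3b, a secreted semaphorin, with 41.9 and 28.2 CPM in WT Th1 and 0.0912 and 0.103 CPM in WT Th2. Its 834 counts against 2 gave a scaled ratio of 360.6 with a counting interval of 99.5 to 2983. Serpinb5, a serpin, had 149 and 137 CPM in WT Th1 and 0.547 and 0.827 CPM in WT Th2 and no count in WT naive cells (7.69 ± 0.23, adjusted p = 8.79e-13). Ms4a4c, a tetraspan membrane protein, had 159 and 158 CPM in WT Th1 and 1.00 and 0.827 CPM in WT Th2, against 23.3 and 18.7 CPM in WT naive cells (7.41 ± 0.27), so WT Th2 was low and WT Th1 high relative to naive cells. Tns4, a tensin, had 52.7 and 57.8 CPM in WT Th1 and 0.73 and 1.45 CPM in WT Th2 (5.68 ± 0.26), and Dclk1, a doublecortin-like kinase, 61.2 and 53.2 CPM in WT Th1 and 2.01 and 1.65 CPM in WT Th2 (4.95 ± 0.21). Ggt1, a glutathione enzyme, had 29.8 and 30.4 CPM in WT Th1 and 0.821 and 0.62 CPM in WT Th2 (5.35 ± 0.30). Ly6g, 33.3-fold higher, belongs to the Ly6 genes with near copies, so its count is uncertain. The serpin Serpinb9b was 28.9-fold higher. Among the most abundant genes, Plac8 had 910.1 and 859.5 CPM in WT Th1 and 64.4 and 69.3 CPM in WT Th2 (3.73 ± 0.24), and Ctsw, a cathepsin of cytotoxic cells, 476 and 494 CPM in WT Th1 and 69.4 and 62.2 CPM in WT Th2 (2.88 ± 0.20).

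The WT Th2 side held wider gaps. Pth, which encodes parathyroid hormone, had 0.0849 and 0 CPM in WT Th1 and 92.1 and 109.7 CPM in WT Th2 and no count in WT naive cells. With 1 count over WT Th1 and 2070 over WT Th2, the scaled ratio of WT Th2 over WT Th1 was 2394, with a counting interval of 429 to 94591. March10, a ubiquitin ligase, had no count in WT Th1 and 1401 in WT Th2, at least 540-fold lower in WT Th1, and Tcaf2, a partner of a cold-sensing channel, none against 633, at least 244-fold lower. Adamtsl3, a matrix protein, had 0.17 and 0.331 CPM in WT Th1 and 218 and 166 CPM in WT Th2 (-9.51 ± 0.39, adjusted p = 7.22e-11). Plcd4, a phospholipase C, had 0.34 and 0.166 CPM in WT Th1 and 93.0 and 80.7 CPM in WT Th2 (-8.37 ± 0.51), and Myh7b, a myosin heavy chain, 0.255 and 0.166 CPM in WT Th1 and 61.8 and 55.5 CPM in WT Th2 (-8.05 ± 0.35).

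Htr1b, Efna5 and Cacna1c were also far higher in WT Th2. Htr1b, a serotonin receptor, had 0 and 0.166 CPM in WT Th1 and 54.1 and 38.1 CPM in WT Th2, which is 2 counts against 962. Efna5, an ephrin, had 0.17 and 0.0827 CPM in WT Th1 and 72.8 and 58.3 CPM in WT Th2, and Cacna1c, a calcium channel, 0.17 and 0 CPM in WT Th1 and 33.8 and 29.98 CPM in WT Th2. Their scaled ratios of WT Th2 over WT Th1 were 556 (interval 153.6 to 4599), 525.0 (179.3 to 2549) and 381.6 (105.2 to 3158). All WT naive libraries held 0 to 0.0982 CPM of these 3 genes, so the WT Th2 cultures were the high group. Tgm2, a transglutaminase of the matrix, was far more abundant, with 227 and 221 CPM in WT Th1 and 1654 and 1384 CPM in WT Th2 (-2.76 ± 0.32).

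Among the 12 lowest genes, Chil3 and Hspa1a varied between libraries. Chil3, a chitinase-like protein of myeloid cells, had 0.0849 and 0.248 CPM in WT Th1 and 102 and 19.3 CPM in WT Th2 (-8.42 ± 1.91, adjusted p = 0.0037), so the WT Th2 replicates were themselves far apart. Its adjusted p was 0.0971 when the 4 libraries were fitted alone and 0.0832 with limma voom. Hspa1a, an inducible heat shock protein with the near copy Hspa1b, had 0.424 and 0.0827 CPM in WT Th1 and 28.8 and 41.6 CPM in WT Th2 (-7.06 ± 1.04), and its log2 fold change was -8.54 without WT Th1 replicate 1 and -6.32 without WT Th1 replicate 2. In the list of handling stress genes, 5 of 10 were lower in WT Th1 and 1 higher, and the summed level was 747 and 682.5 CPM in WT Th1 and 770 and 800 CPM in WT Th2.

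Of 15 pan-T cell genes, 11 were higher and 1 lower in WT Th1, with a median of 0.59, and their summed level was 12466 and 12315 CPM in WT Th1 and 7700 and 7228 CPM in WT Th2. Among them Ptprc was 2.15-fold higher, Cd3g 2.18-fold higher and Trat1 6.0-fold lower. Markers of other cells had lower summed levels. Mast cell and basophil markers summed to 206.7 and 156.7 CPM in WT Th1 and 111.6 and 116.4 CPM in WT Th2, with 3 of 14 higher and 2 lower. Cpa3, a mast cell protease, was 7.36-fold higher (74.7 and 57.2 CPM in WT Th1 and 7.48 and 10.4 CPM in WT Th2) and Mcpt1 9.28-fold lower (2.04 and 1.74 CPM in WT Th1 and 17.9 and 17.2 CPM in WT Th2); Mcpt1 has near copies in the genome. Myeloid and dendritic cell markers summed to 41.9 and 38.2 CPM in WT Th1 and 52.6 and 46.5 CPM in WT Th2, with 1 of 14 higher and 4 lower and with Clec9a and Siglech at 0. B cell markers summed to 27.6 and 16.6 CPM in WT Th1 and 51.7 and 29.2 CPM in WT Th2, with none of 10 higher and 3 lower. NK cell and ILC markers summed to 35.3 and 37.3 CPM in WT Th1 and 32.6 and 34.2 CPM in WT Th2, with 3 of 10 higher and 3 lower. CD8 T cell markers summed to 21.9 and 25.9 CPM in WT Th1 and 13.1 and 16.2 CPM in WT Th2, with 1 of 2 higher. Stromal and endothelial markers summed to 136 and 129 CPM in WT Th1 and 173 and 149 CPM in WT Th2, and erythroid markers to 0.93 and 0.25 CPM in WT Th1 and 1.1 and 0.83 CPM in WT Th2. None of these 6 stromal and endothelial or 7 erythroid markers was called, and Hba-a1, Hba-a2, Cdh5 and Col3a1 were at 0. Of the markers called lower, Hdc of the mast cell list and Fcer1g of the myeloid list were not called with limma voom or without the filter. These 2 also lost their calls in at least 1 fit that left out a library. So did Cd68 and Flt3 of the myeloid list, Cd79b of the B cell list and Klrb1a of the NK cell and ILC list. The part of these cells in the contrast was not tested.

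The same contrast was then set beside the other libraries. These enter the WT contrast without compound through the shared filter on low counts, the scaling and the estimate of the spread. With SGC0649, 6323 genes (48.4%) were called between Th1 and Th2, and with SGC0946 6586 (50.4%). Genes called in the same direction without compound and with SGC0649 numbered 5136, which is 73.7% of the calls without compound and 81.2% of those with SGC0649, and 7 genes were called in opposite directions. With SGC0946, 5055 were shared (72.5% and 76.8%) and 57 were opposite. In KO cultures, 7821 genes (59.8%) were called, 3670 higher (28.1%) and 4151 lower (31.8%) in KO Th1. Of these, 3508 went the same way as in WT (50.3% of the WT calls and 44.9% of the KO calls) and 1100 the opposite way. Of the 1139 WT genes called at 4-fold or more, 1126 had the same direction with SGC0649, 1123 with SGC0946 and 953 in KO.

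**Figure D5:**
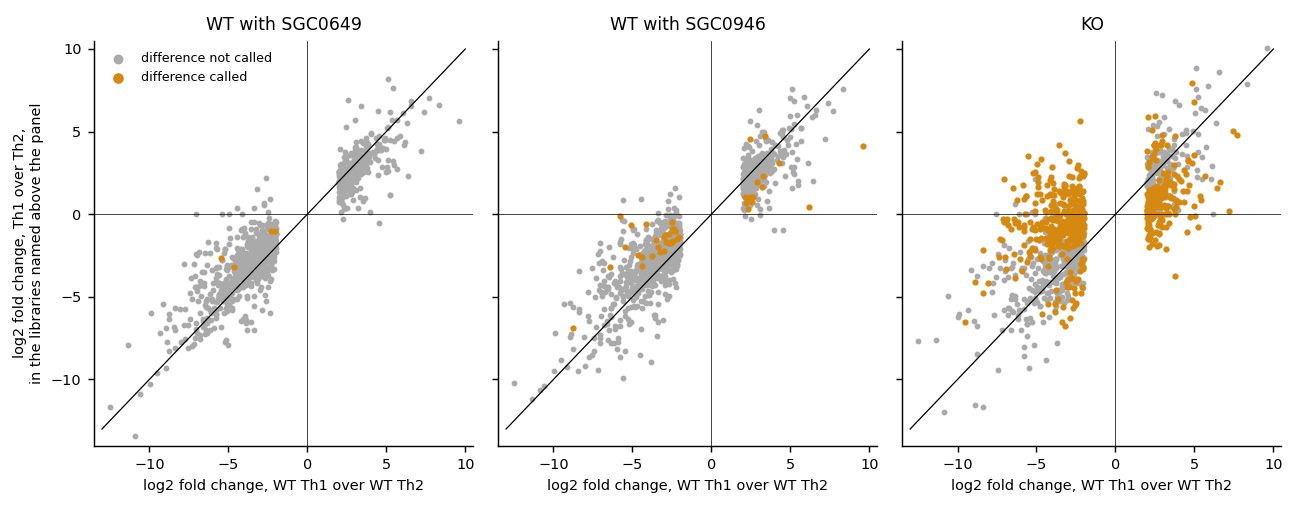
Each point is 1 of the 1139 genes called at 4-fold or more between WT Th1 and WT Th2, with its log2 fold change there on the horizontal axis and its log2 fold change of Th1 over Th2 in the libraries with SGC0649 (left), SGC0946 (middle) or the KO (right) on the vertical axis. Points lie along the diagonal in the left and middle panels, and in the KO panel 565 genes have a called difference (orange). The genes were picked for their size in WT without compound, so values nearer to 0 elsewhere are favoured by that choice.

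The test of the difference itself, WT without compound minus WT with SGC0649, called 9 genes (0.0688%), all with the lower fold change without compound. This count rested on single libraries. It was 0 without either WT Th1 replicate, without WT Th2 replicate 1 or without WT Th1 SGC0649 replicate 1, 1 without WT Th1 SGC0649 replicate 2 or WT Th2 SGC0649 replicate 2, 5 without WT Th2 replicate 2, and 1147 without WT Th2 SGC0649 replicate 1. It was 17 with the replicate number as a block. Selenbp1, a selenium-binding protein, was lower in Th1 by both contrasts, with log2 fold changes of -4.67 without compound and -3.18 with SGC0649 (difference -1.49 ± 0.19, adjusted p = 0.0065). The difference lost its call without either WT Th1 replicate, WT Th2 replicate 1 or WT Th1 SGC0649 replicate 1, and lay between -1.62 and -1.35 over the 8 libraries left out in turn.

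Against SGC0946, 407 differences were called (3.11%), 212 higher (1.62%) and 195 lower (1.49%) in the contrast without compound. The count was 819 with the replicate block, and with single libraries left out it was 179 without WT Th1 replicate 1, 122 without WT Th1 replicate 2, 126 without WT Th2 replicate 1, 135 and 193 without WT Th1 SGC0946 replicates 1 and 2, 181 without WT Th2 SGC0946 replicate 2, and 307 and 320 without WT Th2 replicate 2 and WT Th2 SGC0946 replicate 1. Tnf had a log2 fold change of 1.55 without compound and 3.88 with SGC0946 (difference -2.33 ± 0.22, adjusted p = 5.25e-05). Lta, its neighbour, had -0.90 without compound and 1.31 with SGC0946 (-2.21 ± 0.25, adjusted p = 0.000327), so the WT Th1 group was the lower one without compound and the higher one with the inhibitor. Myb, a factor of resting and memory T cells, had 1.91 without compound and -0.37 with SGC0946 (2.28 ± 0.16, adjusted p = 1.34e-06). Cd200, a ligand that restrains myeloid cells, had -1.86 and was not called with SGC0946 (0.12, difference -1.98 ± 0.19). Each of these 4 differences stayed called without any 1 of its 8 libraries.

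Between WT and KO cultures the difference was called for 6045 genes (46.2%), 3175 higher (24.3%) and 2870 lower (22.0%) in WT. The deletion itself showed little in whole-gene counts. Dot1l had 176 and 186 CPM in WT Th1 and 148 and 164 CPM in WT Th2, against 131 and 146 CPM in KO Th1 and 113 and 92.5 CPM in KO Th2, with the KO libraries the lower ones. Whole-gene counts include reads outside the deleted part, so they check the labels only weakly. Of the 1139 large WT changes, 565 differed in KO. These genes were picked for their size in WT, so that count says nothing on whether changes were smaller in KO. Over all tested genes, 1342 (10.3%) were called at 4-fold or more between KO Th1 and KO Th2, 666 higher and 676 lower in KO Th1, against the 366 higher and 773 lower in WT Th1.

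Tbx21 had log2 fold changes of 3.93 in WT and 2.32 in KO (difference 1.61 ± 0.20, adjusted p = 9.3e-06), and Il4 -4.08 in WT and -1.73 in KO (-2.35 ± 0.50, adjusted p = 0.00152). Gata3 differed more between the KO cultures, at -3.10 in WT and -4.11 in KO (1.01 ± 0.21, adjusted p = 0.000972). Ifng, Il13 and Il5 had 4.91, -3.25 and -4.65 in WT, and 5.06, -3.12 and -4.64 in KO, with no called difference. Stat4 had 1.40 in WT and -0.46 in KO, where it was not called (1.86 ± 0.29, adjusted p = 0.000108).

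Among the lowest p of this test, Myo6, a myosin motor, had -5.28 in WT and -0.87 in KO (-4.41 ± 0.20, adjusted p = 4.12e-10). Tlr1, a receptor for bacterial lipopeptides, had 2.07 in WT and -1.44 in KO (3.51 ± 0.16), and Myb 1.91 in WT and -1.47 in KO (3.38 ± 0.16). Tlr1 and Myb were thus higher in Th1 for WT and lower in Th1 for KO. Each difference named here stayed called without any 1 of its 8 libraries.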

How the data were processed

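Sequencing was of total RNA from CD4+ T cells. The deposited table gives counts of reads per gene, made with featureCounts 1.5.3 on Ensembl release 84 with strand setting 2, per the file headers, on GRCm38, per the submitters' processing notes. The deposited gene lengths, in bases (another kind of value) per the file headers, were used only for levels per kb. Reads with more than 1 place in the genome were left out, which makes genes with near copies uncertain. The aligner is not given in the sources used here.

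Of 22048 protein-coding genes, 13072 passed filterByExpr (10 counts in enough libraries, 15 in total). In edgeR 4.0.16 (R 4.3.3), each group of the 20 libraries had its own mean in 1 fit (TMM, robust quasi-likelihood F test, 10 residual degrees of freedom). Benjamini-Hochberg adjustment was over all tested genes. The 4 libraries held 9704500 to 12274847 protein-coding counts. Replicates differed by more than counting error, with a chi-square per degree of freedom of 2.25 in WT Th1 and 5.05 in WT Th2. A group with no count was set to 3 counts, and for 1 to 3 counts the ratio of CPM has an exact 95% interval, both covering counting error only.

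Among WT cultures, same-numbered libraries deviated together. The difference between replicates correlated at 0.18 to 0.69 over 15 pairs of groups and 9235 genes (0.18 between WT Th1 and WT Th2). For a library of WT Th1 SGC0946 and a library of WT Th2 SGC0946, the file header and the sample title gave different replicate numbers. Both were matched by their library number, which is unique, and took the replicate number of the title. The pairs with SGC0946 groups and the block rest on that choice. The replicate numbers were taken to pair the libraries from these data and not from the labels, and the pairing entered as a block among the alternatives. The others were DESeq2 1.42.0, limma voom 3.58.1, RLE scaling, no filter, the full table, other sets of libraries, other thresholds and each library left out.

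The comparison and the gene lists were chosen with earlier results of these data known. Named genes are 11 fixed lineage genes, the 12 highest and 12 lowest fold changes at an average log2 CPM of at least 3 without overlap and without provisional names, the 6 most abundant called genes in each direction at 4-fold or more, members of the Th1 and Th2 lists, up to 4 called members of other lists in each direction, genes within 250 kb of 5 loci, and the 6 lowest p of each difference; a few of these are not reported here. Runx1, Notch1 and other members outside the first ranks come from the Th1 and Th2 lists. Promoter sequences are from RefSeq on GRCm38.p6.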

Additional observations from a re-analysis of the deposited data

Results flagged for a closer look

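The results here are those whose Th1 over Th2 change, tested directly, differed between WT cultures without compound and another set of cultures. Each value is the log2 fold change of Th1 over Th2 in WT without compound minus that in the other set, called at an adjusted p under 0.05 by edgeR's quasi-likelihood test with Benjamini-Hochberg adjustment. Their causes were not tested.

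Against KO cultures, 6045 genes differed. The fixed lineage genes among them were Tbx21 (1.61), Stat4 (1.86), Il12rb2 (1.12), Gata3 (1.01), Il4ra (0.67) and Il4 (-2.35). Those with the lowest p were Tlr1 (3.51), Myb (3.38), Extl3, a glycosyltransferase of heparan sulphate (3.08), Fam53b (2.95), Focad (2.85) and Myo6 (-4.41). All 12 stayed called without any 1 of the 8 libraries of the contrast.

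With SGC0649, 9 genes differed. They include Selenbp1 (-1.49), Kctd11 (-1.37), Trib1 (-1.30), Vldlr (-1.0), Plcxd1 (-0.95) and Egln3, an oxygen-sensing enzyme (-0.77). Each of these 6 differences lost its call in at least 4 of the 8 fits that left out 1 library, WT Th1 replicate 1 and WT Th1 replicate 2 among them, with the log2 differences between -1.62 and -0.73 over all these fits.

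With SGC0946, 407 genes differed. Those with the lowest p were Myb (2.28), Tnf (-2.33), Cd200 (-1.98), Plxnc1, a semaphorin receptor (1.51), Lta (-2.21) and Iqgap2 (0.95). All 6 stayed called without any 1 of the 8 libraries.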

How the results depend on the processing

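The count of genes called between WT Th1 and WT Th2 was within 1.5 times its value under every alternative except the added fold threshold, where 2673 genes were called at 2-fold or more, and it ranged from 5567 to 5825 with single libraries left out, where fewer samples entered the fit. Of 284 named genes called, 284 kept their call with the replicate block, and 260 to 262 with single libraries left out. The block called 7273 genes, 6956 of them among the 6973, and added Il1r1, Plin2 and Uqcrq among named genes. RLE scaling moved the median of all genes by -0.0262. The difference between WT and KO stayed within 1.5 times under all alternatives (6314 with the block, 6027 of them among the 6045, and 5012 to 5593 with single libraries left out). The difference with SGC0649 was called for 49 genes with DESeq2, 0 in a fit of the 8 libraries alone, 15 without a filter on low counts, 17 with the replicate block that pairs the libraries, and 0 to 1147 with single libraries left out. The difference with SGC0946 was called for 672 genes with DESeq2, 1398 in a fit of the 8 libraries alone, 819 with the replicate block, and 122 to 320 with single libraries left out. The cause was not tested. The genes that changed sign were not called ones. With single libraries left out, Il21 lay between -0.17 and 0.35, Kctd11 between -0.23 and 0.19, Kpnb1 between -0.0055 and 0.13, and Stat5a between -0.091 and 0.13. Stat5a was at -0.022 with DESeq2 and with RLE scaling and -0.0070 in a fit of the 4 libraries alone. With 2 libraries per group, no single stray library could be told from its replicate, and genes with a few counts have wide intervals.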

Other observations

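Gene families were grouped after their values were seen, so their counts are descriptions, to be read against 26.0% of all tested genes higher and 27.3% lower in WT Th1. All 7 tested Ms4a4 and Ms4a6 genes were higher in WT Th1, with a median log2 fold change of 3.29, as were 7 of 9 Ly6 genes (median 2.14) and 7 of 8 Gimap genes, GTPases of lymphocyte survival (median 1.30). Of 24 Klr lectin receptor genes, 10 were higher and 4 lower. Of the interferon-induced families, 9 of 10 Gbp genes (median 2.29) and 6 of 8 Schlafen genes (median 1.18) were higher. So were 5 of 5 genes grouped with Ifi204, which were Ifi203, Ifi204, Mnda, Mndal and Pyhin1 (median 4.20). Serpinb genes, intracellular protease inhibitors, were higher for 6 of 8 (median 2.21). Reads of near copies in these families were not counted, so single members are uncertain.

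None of 74 ribosomal protein genes was higher in WT Th1 and 61 were lower (median -0.57), and of 20 cytosolic aminoacyl-tRNA synthetase genes 14 were lower and 1 higher (median -0.76). All 3 tested Plcd phospholipase C genes were lower (median -6.03).

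Outside the protein-coding class, 877 of 2866 tested genes were called (30.6%), 426 higher and 451 lower in WT Th1. Miat, a long noncoding RNA, had 9.93 and 9.41 CPM in WT Th1 and 0.951 and 0.788 CPM in WT Th2 (log2 fold change 3.45 ± 0.29). Hopxos, antisense to Hopx, had 5.65 and 6.98 CPM in WT Th1 and 0.432 and 0.492 CPM in WT Th2 (3.75 ± 0.41). Gdap10 had 10.3 and 9.49 CPM in WT Th1 and 48.7 and 42.0 CPM in WT Th2 (-2.20 ± 0.20), and Trp53cor1, a p53-induced RNA, 1.53 and 2.20 CPM in WT Th1 and 6.83 and 8.07 CPM in WT Th2 (-1.99 ± 0.28). These were called by edgeR's quasi-likelihood test with Benjamini-Hochberg adjustment, and their libraries did not overlap between the groups.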
